A study of Sus scrofa with 9 samples.

Results

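The genes described here are 10 members of the stress response and protein folding machinery of the endoplasmic reticulum: HSPA5, HSP90B1, CALR, CANX, PDIA3, PDIA4, DNAJC3, ATF4, XBP1 and DDIT3. They were followed in longissimus dorsi, a back muscle, of Bama minipigs on 2 diets. A member was taken as measured where the RefSeq accession that the array files give for a probe belonged to its symbol in the pig RefSeq gene table (assembly Sscrofa11.1). That found 25 probes of 7 of the 10 members, out of 3196 genes named on the array in the same way. HSP90B1 had 8 probes (accession NM_214103), ATF4 had 6 (NM_001123078), XBP1 had 6 (NM_001142836), DNAJC3 had 2 (NM_001190184), and CALR (NM_001174133), CANX (NM_001243210) and DDIT3 (NM_001144845) had 1 each. No probe was matched to HSPA5, PDIA3 or PDIA4, so these 3 were not analysed here. All 25 probes were well above background on all 9 arrays by the scanner software's own call, none was saturated on any array, and all passed the filter on dim probes.

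The endoplasmic reticulum is the compartment in which secreted and membrane proteins are folded. HSPA5 (BiP) is its Hsp70 chaperone and HSP90B1 (GRP94) its Hsp90 chaperone, CALR and CANX are lectins that hold newly glycosylated proteins, and PDIA3 and PDIA4 form and rearrange disulfide bonds. When unfolded proteins build up, the sensors PERK, IRE1 and ATF6 start the unfolded protein response. PERK signalling raises translation of the factor ATF4, IRE1 splices the messenger of the factor XBP1 into its active form, and DDIT3 (CHOP) is a factor induced downstream of ATF4 under lasting stress. DNAJC3 (P58IPK) is a co-chaperone that also restrains PERK. In muscle fibres the endoplasmic reticulum is continuous with the calcium-storing sarcoplasmic reticulum, and high-fat feeding is a widely used setting for studying this response. An array measures messenger abundance, so neither the translation of ATF4 nor the splicing of XBP1 was measured.

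The high-fat high-sucrose group (HFHSD, 6 animals) ate 53% basal feed, 37% sucrose and 10% lard for 23 months from an age of 6 months, and the control group (CD, 3 animals) ate standard pig chow over the same period. The animals of both groups were Bama minipigs of both sexes, gonadally intact, penned singly and fed a restricted ration of 3% of body weight in 2 meals a day, and were fasted overnight before dissection. The sex of each animal is not given, and the descriptions name 3 CD animals in one place and 6 in another, of which 3 have arrays. Each animal gave 1 single-colour (Cy3) Agilent porcine array, and the arrays are numbered here in accession order, which carries no meaning. Levels are log2 of the processed signal minus the 75th percentile of the same array, so a level of 0 is that percentile and a difference of 1 is a doubling of signal. Levels of different probes are not comparable with each other.

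The arrays lay on 3 slides. HFHSD 5 and HFHSD 6 shared slide 1, which has a scan day of its own. On slide 2 the control CD 1 lay beside HFHSD 1, HFHSD 3 and HFHSD 4. The controls CD 2 and CD 3 shared slide 3 with HFHSD 2. CD 1 stood apart. It had 36.8% of its probes well above background, against 51.2% to 68.9% on the other arrays, and its negative controls varied most (SD 5.66, against 1.67 to 2.65). All 17 measured skeletal muscle fibre genes, led by ACTA1 and CKM, were well above background on all 9 arrays. No 2 arrays of a group were copies: the median absolute difference of a probe was at least 0.277 in log2 for each pair.

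All 25 probes of the 7 measured members had a lower mean in HFHSD than in CD muscle, but none passed the test. In the limma fit, with p-values adjusted by the Benjamini-Hochberg method over 27925 tested probes and a threshold of 0.05, 0 of 25 were called, while 345 probes over the whole array were called (1.24%). The smallest adjusted p of a member was 0.169, for the brightest probe of DNAJC3. The median difference of the 7 genes, each by its brightest probe, was -0.43 in log2, beside -0.086 over all 2613 named genes tested. Lower means were common in the whole table, at 52.2% of probes and 57.6% of named genes. Unadjusted p-values were under 0.05 for 5 of the 25 probes (3 of ATF4, 1 of DNAJC3 and 1 of DDIT3), where 8.80% of all probes were lower at that level. For 6 of the 25 (4 of ATF4 and both of DNAJC3) every HFHSD array lay below every CD array, which held for 6.11% of all probes. The count of lower probes was 25 without CD 1, 23 without CD 3, 22 without HFHSD 5, 20 without slide 1, 24 with slide as a fixed block, 22 with array weights, 24 with normexp and quantile normalisation, and 12 with normexp and 75th percentile scaling. It was 25 in the other settings run over all 25 probes. Probes of one gene share their target, so the 25 are not independent observations. In bulk muscle, fewer cells of a type and less messenger in each cell cannot be told apart.

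**Figure D1:**
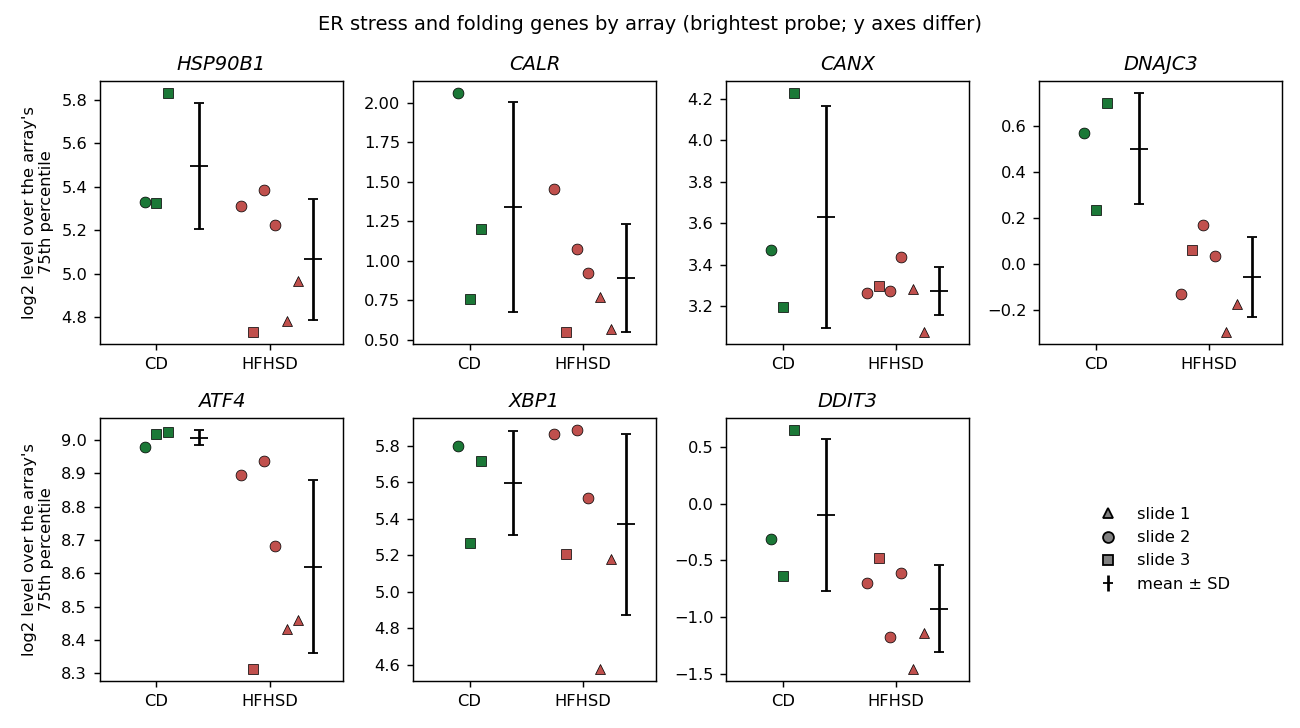
Level of the brightest probe of each measured member on each array (log2 over the array's 75th percentile; the y axes differ), with CD in green, HFHSD in red, the marker shape giving the slide, and bars giving mean ± SD (n = 3 CD, n = 6 HFHSD). The groups are apart for DNAJC3 and ATF4 and overlap for the other 5 genes.

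Among the chaperones, HSP90B1 was measured most densely. Its brightest probe read 5.33, 5.33 and 5.83 on CD 1, CD 2 and CD 3, and from 4.73 to 5.38 with a median of 5.09 on the HFHSD arrays. The HFHSD arrays thus covered a range that began below all CD arrays and reached into theirs. The difference was -0.43 (SE 0.22, 95% interval -0.93 to 0.07, adjusted p = 0.382 by limma), or 0.742 of the CD level. The other 7 HSP90B1 probes differed by -0.32 to -0.52. CD 3 was the highest array for all 8 probes, and HFHSD 5 the lowest for 6 and HFHSD 2 for the remaining 2. Without CD 3 the difference of the brightest probe was -0.26.

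The lectin chaperones CALR and CANX each had 1 probe, and the size of each difference moved with single control animals. CALR, a soluble calcium-binding lectin, read 2.06, 0.76 and 1.20 on CD 1, CD 2 and CD 3 and from 0.55 to 1.46 (median 0.85) in HFHSD. Only CD 1 lay above all HFHSD arrays. The difference of -0.45 (SE 0.31, 95% interval -1.14 to 0.24, adjusted p = 0.536 by limma) was -0.087 without CD 1 and -0.74 without CD 2. CANX, its membrane-bound relative, read 3.47, 3.20 and 4.23 on the CD arrays and from 3.07 to 3.44 (median 3.28) in HFHSD. Here CD 3 stood far above the rest, CD 1 just above the highest HFHSD array, CD 2 lay inside the HFHSD range, and the HFHSD animals were close to each other (SD 0.12, against 0.54 in CD). The difference of -0.36 (SE 0.23, 95% interval -0.88 to 0.16, adjusted p = 0.502 by limma) was -0.060 without CD 3 and -0.58 without CD 2.

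DNAJC3 came nearest to a call in the fit as reported. In some other settings the smallest adjusted p of a member belonged to a probe of CALR, ATF4 or DDIT3. Its brightest probe read 0.57, 0.23 and 0.70 on CD 1, CD 2 and CD 3 and from -0.30 to 0.17 (median -0.05) in HFHSD. No HFHSD animal reached the lowest control. The CD mean of 0.50 ± 0.24 (SD, n = 3) and the HFHSD mean of -0.055 ± 0.17 (SD, n = 6) differed by -0.56 (SE 0.19, 95% interval -0.97 to -0.14, adjusted p = 0.169 by limma), or 0.680 of the CD level. The second probe differed by -0.43 (adjusted p = 0.319 by limma), and its groups did not overlap either, with a highest HFHSD array of -0.27 and a lowest CD array of -0.23. Across the other processing choices the brightest probe stayed between -0.70 and -0.35, with adjusted p-values from 0.0648 to 0.609.

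ATF4, the factor of the PERK branch, gave the tightest controls by its brightest probe, while the CD SD of another of its probes was 0.33. Its brightest probe read 8.98, 9.02 and 9.02 on the CD arrays and from 8.31 to 8.94 (median 8.57) in HFHSD. All 6 HFHSD animals were below the controls, HFHSD 1 and HFHSD 3 by little. The CD mean of 9.01 ± 0.024 (SD, n = 3) stood against 8.62 ± 0.26 (SD, n = 6), a difference of -0.39 (SE 0.20, 95% interval -0.83 to 0.05, adjusted p = 0.369 by limma). The fit assumes a common spread for both groups and shares its estimate over all probes. The small SD of these 3 controls thus counts for less than it would alone. The other 5 ATF4 probes differed by -0.33 to -0.57, and the 3 with unadjusted p under 0.05 lay at -0.51, -0.53 and -0.57 with adjusted p-values of 0.237 to 0.247. The groups did not overlap for those 3 and for the brightest, and did for the remaining 2. The mean of all 6 probes differed by -0.48 (adjusted p = 0.267 by limma on gene means).

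XBP1, the factor of the IRE1 branch, differed least. Its brightest probe read 5.80, 5.27 and 5.71 on CD 1, CD 2 and CD 3 and from 4.58 to 5.89 (median 5.36) in HFHSD. HFHSD 1 and HFHSD 3 were above every control, and HFHSD 5 lay 0.60 below the next lowest array. The difference was -0.22 (SE 0.30, 95% interval -0.90 to 0.45, adjusted p = 0.788 by limma), and the other 5 probes lay between -0.22 and -0.09. HFHSD 5 was the lowest array for all 6 probes, while the highest was HFHSD 3 for 5 and HFHSD 1 for 1. The difference of the brightest probe was -0.065 without HFHSD 5, 0.023 without slide 1, -0.12 without CD 1 and -0.39 without CD 2. The interval of this gene still includes a fall by 0.90 and a gain of 0.45, so XBP1 was not shown to be alike in both diets.

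DDIT3, the stress-induced factor often read as a mark of lasting stress, had the most negative estimate and wide scatter. Its single probe read -0.31, -0.64 and 0.65 on CD 1, CD 2 and CD 3 and from -1.46 to -0.48 (median -0.92) in HFHSD. CD 3 was far above all others, and CD 2 lay inside the HFHSD range. The CD mean of -0.10 ± 0.67 (SD, n = 3) and the HFHSD mean of -0.93 ± 0.38 (SD, n = 6) differed by -0.83 (SE 0.32, 95% interval -1.55 to -0.11, adjusted p = 0.235 by limma), or 0.564 of the CD level. It was -0.45 without CD 3 and -1.10 without CD 2.

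**Figure D2:**
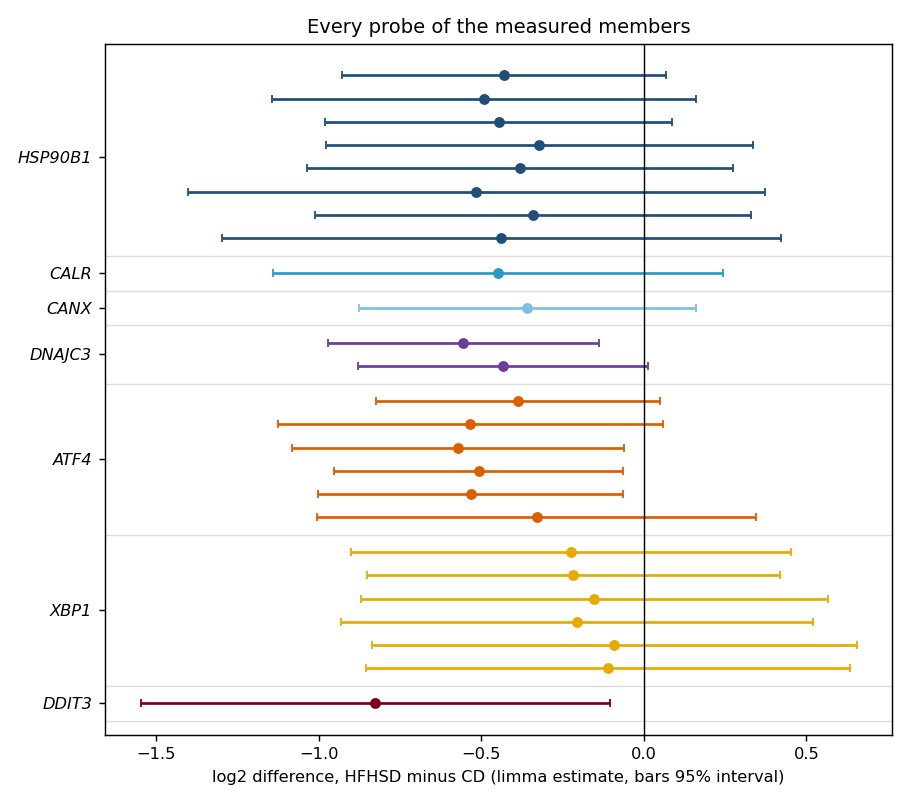
Log2 difference, HFHSD minus CD, of all 25 member probes with the 95% interval of the limma fit, brightest probe on top within each gene. All 25 estimates lie below 0, and the intervals exclude 0 for 3 probes of ATF4, 1 of DNAJC3 and 1 of DDIT3, before adjustment over the array.

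The HFHSD animals differed among themselves, described here by 1 split, slide 2 against the other slides. Of the 25 member probes, 17 were higher on all 3 HFHSD arrays of slide 2 than on all 3 HFHSD arrays of the other slides, which held for 14.7% of all tested probes. XBP1 showed it in 6 of 6 probes and HSP90B1 in 7 of 8, ATF4 in 2 of 6, DNAJC3 in 1 of 2 and CALR in its 1 probe, while CANX and DDIT3 did not. The mean of the 3 HFHSD arrays of slide 2 was set against that of the other 3, pooled over slides 1 and 3. It was higher by 0.66 to 0.77 for XBP1 and by 0.46 to 1.05 for HSP90B1. The diet differences over the same probes were -0.22 to -0.09 and -0.52 to -0.32. The mean level of the 7 genes was 3.32 to 3.42 on HFHSD 1, HFHSD 3 and HFHSD 4, and 3.096, 2.87 and 2.99 on HFHSD 2, HFHSD 5 and HFHSD 6. The CD arrays read 3.70, 3.31 and 3.91, so CD 2 lay within the range of the HFHSD arrays. The HFHSD arrays of slide 2 had 51.2% to 55.5% of probes well above background and the other HFHSD arrays 61.5% to 68.9%. The part of slide, array brightness or animal in this split was not tested.

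Within slide 2, where CD 1 is the only control, 18 of 25 member probes were lower in HFHSD, with a median of -0.14 (53.6% of all probes were lower there). Within slide 3, where HFHSD 2 is the only treated animal, all 25 were lower, with a median of -0.72 (51.4% of all probes). The 7 genes by their brightest probe were lower in both. The values of HSP90B1 were -0.025 in slide 2 and -0.85 in slide 3, and those of ATF4 were -0.14 and -0.71. The brightest DNAJC3 probe gave -0.54 and -0.41 and its second probe -0.14 and -0.60, DDIT3 gave -0.52 and -0.49, and CALR gave -0.91 and -0.43. Whether the slides differ in the diet difference was not tested. With slide as a fixed block the 7 estimates ran from -0.68 for CALR to -0.16 for XBP1. In that fit 0 of 25 member probes were called, beside 80 of 27925 probes over the array. The smallest adjusted p of a member was 0.179 by limma, for CALR.

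**Figure D3:**
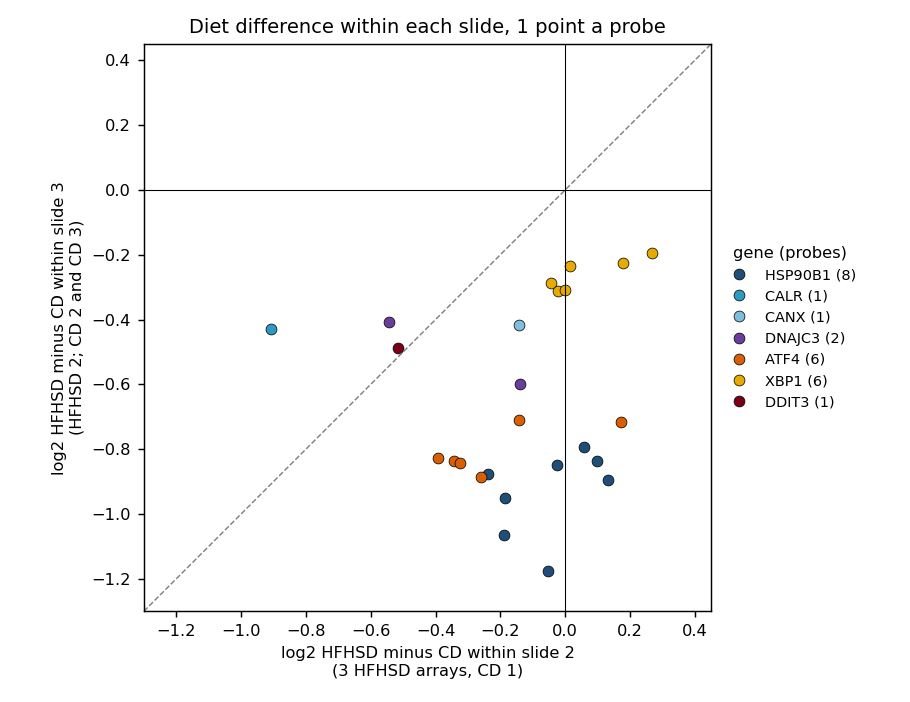
Log2 difference, HFHSD minus CD, of each member probe within slide 2 (x axis) and slide 3 (y axis), coloured by gene; the dashed line marks equal values. All points lie below 0 on the y axis, and the HSP90B1 probes sit near 0 on the x axis at -0.24 to 0.13.

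The direction turned in 1 combination of background correction and scaling. With normexp correction and 75th percentile scaling the median of the 7 genes was 0.020, with HSP90B1 at 0.020, ATF4 at 0.040, CANX at 0.077 and XBP1 at 0.17, while DDIT3 stayed at -0.65, DNAJC3 at -0.35 and CALR at -0.12. Normexp with quantile normalisation left all 7 genes lower, with a median of -0.36. In normexp with percentile scaling the 75th percentile of CD 1 was the highest of the 9 arrays (9.05, against 7.87 to 8.47), whereas by the processed signal it was the lowest (7.06, against 7.37 to 8.20). The scanner software's processed signal has a fitted spatial background surface removed, whose root mean square was 19.9 signal units on CD 1 and 1.49 to 3.39 on the other arrays. The normexp setting starts from signals before that step, and the part of it in the result was not tested. ATF4 then read 7.31 on CD 1 beside 8.98 and 8.90 on the other controls. With CD 1 left out, the same normexp setting gave a median of -0.42, and all 25 probes were lower. Leaving out CD 1 under the processed signal gave a median of -0.44. No member was called in any setting.

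**Figure D4:**
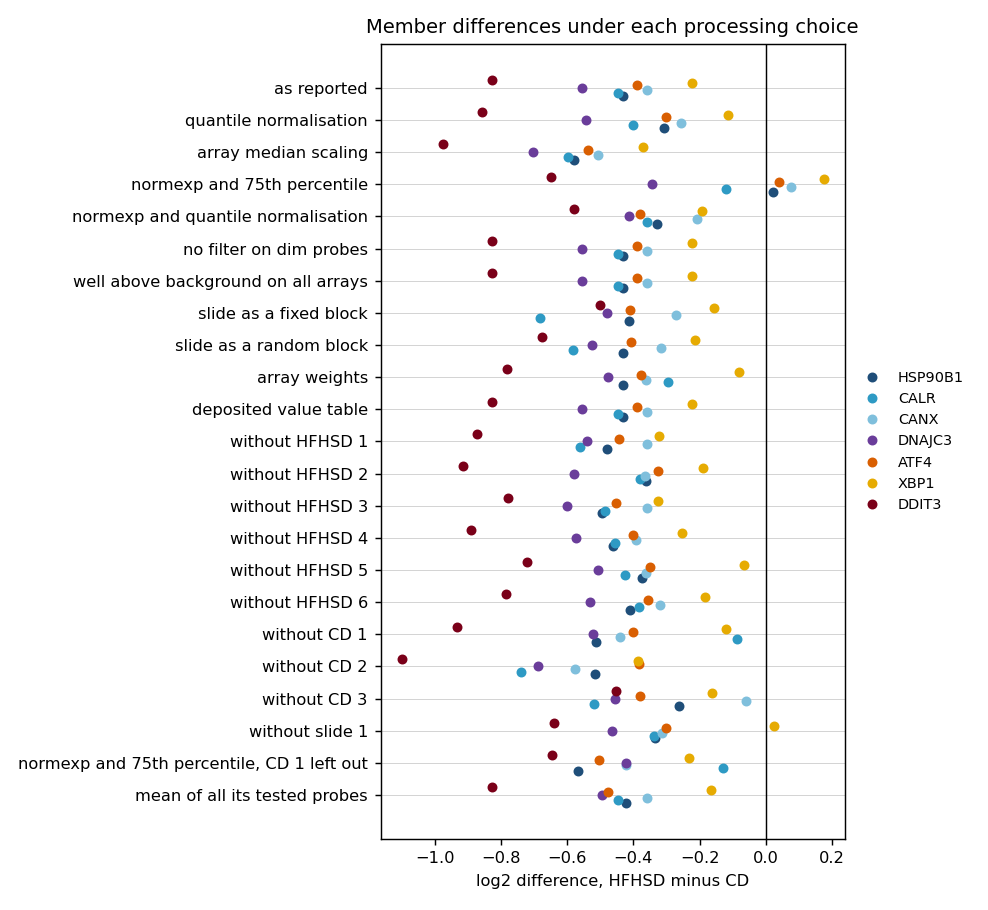
Log2 difference, HFHSD minus CD, of the brightest probe of each measured member under every processing choice (rows), as reported on top. Points cross 0 only for HSP90B1, ATF4, CANX and XBP1 with normexp and 75th percentile scaling, and for XBP1 without slide 1.

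Of 156 other genes of the pathway, grouped in 6 lists by role, 34 were measured and tested by their brightest probe. In the limma fit 1 of the 34 was called, beside 0.995% of all named genes. An unadjusted p under 0.05 was reached by 6 of the 34, and by 18.4% of all named genes (482 of 2613), so the lists lay near the background. Their median was -0.12, with 22 lower and 12 higher. The called gene was DPM1, a subunit of the enzyme that makes dolichol-phosphate-mannose for glycosylation, at 3.13 ± 0.14 (SD, n = 3) in controls and 1.996 ± 0.18 (SD, n = 6) after HFHSD, which differed by -1.14 (SE 0.18, adjusted p = 0.0253 by limma). Its 2 dimmer probes did not follow, at 0.22 and -0.019. The call was lost in 10 of 21 other settings: with array median scaling (adjusted p = 0.0684 by limma), no filter (0.0882) or normexp and 75th percentile scaling (-0.72, 0.41), without slide 1 (0.0579), and without CD 1 (0.0869), CD 2 (0.0576), CD 3 (0.154), HFHSD 2 (0.0565), HFHSD 3 (0.0533) or HFHSD 6 (0.0524).

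The list of stress response factors and targets, 8 of 29 measured, had the lowest median (-0.48, 6 lower and 2 higher). TXNIP, a thioredoxin-binding protein that responds to glucose, differed by 0.64 (adjusted p = 0.146 by limma), and was higher in all 7 of its probes. Its groups did not overlap for 5 probes, the brightest included, and overlapped for 2. Over the array, every HFHSD array lay above every CD array for 1336 of 27925 tested probes. CEBPB, a basic leucine zipper factor, differed by -1.03 (adjusted p = 0.152) and lay in HFHSD below all controls. PHGDH, the first enzyme of serine synthesis and a target of ATF4, differed by -1.39 (adjusted p = 0.228), but was well above background on 1 of 3 CD and 2 of 6 HFHSD arrays only. The list kept a negative median in all 4 other scalings and background corrections, from -0.63 to -0.24.

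The other lists had medians closer to 0. The chaperone and disulfide enzyme list, 6 of 40 tested, had a median of -0.16, with ERP44 at -0.34, DNAJB11, a BiP co-chaperone, at -0.29 and SELENOF at -0.20 (adjusted p = 0.355, 0.597 and 0.739 by limma). The median turned to 0.076 with normexp and 75th percentile scaling. The degradation list, 6 of 27, had a median of -0.021, with RNF5, a ubiquitin ligase, at 0.40, SELENOS at -0.43 and UBE2J1 at -0.33. The translocation list, 4 of 24, had a median of 0.17 and included 1 lower gene, SEC61A1, the channel subunit, at -0.61 (adjusted p = 0.237). SPCS1, a signal peptidase subunit, differed by 0.33 (adjusted p = 0.364) and was higher in all 11 of its probes. Its groups did not overlap for the brightest probe and some others, but overlapped for the rest, with differences down to 0.23. SEC62 differed by 0.21. The glycosylation list, 8 of 26, had a median of -0.13, with GANAB, which trims glucose before binding to the lectins, at -0.38 and DAD1 at 0.29 beside DPM1. Of the sensor and kinase list 2 of 10 were measured, EIF2AK2 at 0.078 and ATF6B at 0.068. Neither is the gene of PERK or IRE1, so these sensors were not measured here. No difference between the members and these lists was tested. With normexp and 75th percentile scaling the medians of the degradation, translocation and glycosylation lists were 0.36, 0.53 and 0.26. That of EIF2AK2 and ATF6B was -0.17. The median of the degradation list was also above 0 with quantile normalisation (0.072) and with normexp and quantile normalisation (0.049). That of EIF2AK2 and ATF6B was below 0 with array median scaling (-0.076).

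**Figure D5:**
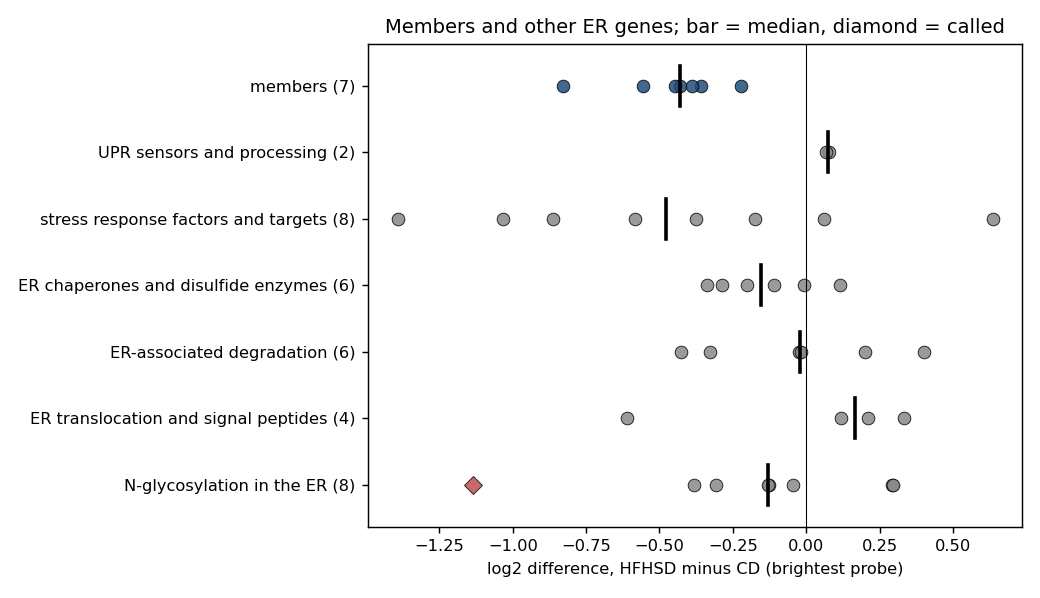
Log2 difference, HFHSD minus CD, of each tested gene (brightest probe) among the members and in 6 other lists of the pathway; the number of genes is in brackets, the black bar is the median and the red diamond is a called gene. The 7 members lie between -0.83 and -0.22, and the called gene is DPM1 at -1.14.

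Markers of cell types were also read on these arrays. The summed level of 9 adipocyte genes was led by LIPE and FABP4. It was 87.2 to 117 times the array's 75th percentile signal in CD and 113 to 373 in HFHSD. The sum weighs bright genes most, and the markers did not move together on HFHSD 4. There LIPE read 7.86, above the CD arrays (5.29 to 5.61), and CIDEA -0.27, also above them. FABP4 read 5.24, below the CD arrays (5.26 to 6.04), and ADIPOQ -0.93, inside their range (-1.24 to -0.71). Of the 9 genes 8 were higher and RETN was lower (-0.77). The median difference was 1.20 (0.65 with normexp and 75th percentile scaling, 0.63 with normexp and quantile normalisation). The 1 called gene was CIDEA, a lipid droplet protein named after its value was seen (1.49, adjusted p = 0.038 by limma). That call was lost in 14 of 21 other settings, among them without any single array but HFHSD 4, at 1.37 to 1.62. PLIN1, which coats fat droplets and was also named after its values were seen, was well above background on 0 of 3 CD and 5 of 6 HFHSD arrays. PLIN1 thus passed the filter only through HFHSD and its levels are not compared, though the sum, the count of 8 and the median above include it. The 17 muscle fibre genes summed to 14900 to 20000 in CD and 12900 to 15900 in HFHSD. Of these 14 were lower and 3 higher, from -1.04 to 0.61, and none was called. For 3 of the 17 every HFHSD array lay below every CD array, as for 231 of 2613 named genes. The median difference of the fibre genes was -0.19. After normexp and 75th percentile scaling it was 0.35, with 3 of 17 lower. The 6 macrophage genes, led by CD163 and C1QB, were all lower (16.8 to 28.2 in CD, 9.65 to 27.2 in HFHSD), none called. Their median of -0.25 turned to 0.051, with 2 of 6 lower, under normexp and 75th percentile scaling. The 5 fibroblast genes, led by DCN and COL1A2, summed to 65.2 to 134 in CD and 79.1 to 129 in HFHSD, and the 5 endothelial genes, led by PECAM1 and VWF, to 30.8 to 32.7 and 23.4 to 39.5. Of the B and plasma cell list, a cell type rich in folding enzymes, PRDM1 alone was tested, at 0.106 to 0.18 in CD and 0.0586 to 0.179 in HFHSD, and was well above background on 2 of 3 CD and 4 of 6 HFHSD arrays. HBE1 alone was tested of the red cell list. It was well above background on 0 of 3 CD and 3 of 6 HFHSD arrays, so its levels are not compared. The part of cell composition in the member values was not tested.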

How the data were processed

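Total RNA of longissimus dorsi was measured on 9 Agilent porcine arrays. Per the file headers, the authors extracted the deposited intensity values in Agilent Feature Extraction 10.7.3.1. The headers also record background subtraction and a spatial and a multiplicative trend correction on each array. The value table deposited for the series repeats these intensity values (0 of 45220 spots differed on any array by over 1e-04 of the value; medians 13.0 to 40.0), so its scale is linear and uncentred. Control and outlier spots were left out, and spots of a probe were averaged in log2 after subtracting the array's 75th percentile, which left 43581 of 43603 probes. Probes well above background on at least 3 arrays were tested. Slide 1 carries an older annotation; accessions were matched without versions to the RefSeq gene table (Sscrofa11.1, names only), which named 6891 probes. The genome build behind the array is not given in the sources used here, so no coordinates are printed.

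The diet comparison used limma (version 3.58.1, R 4.3.3, lmFit, eBayes, two-sided, all 9 arrays, no covariates). The code was also run on simulated data with independent noise and no slide effect. Such data cannot show how the fit handles slides or a deviating array. The brightest tested probe stands for a gene. The text names all members, the 3 genes of each pathway list with the smallest p, any called gene, and the 2 brightest genes of each cell type list. CIDEA, PLIN1, ADIPOQ and RETN were added after their values were seen. Members, lists and rules were chosen with earlier results of these data known. Normexp (offset 50) used median spot signals, since the files used here hold no mean signal. The number of arrays limits the precision.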

Additional observations from a re-analysis of the deposited data

How the results depend on the processing

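The count of 0 called member probes was the same in all 21 other settings, and the median of the members lay between -0.58 and -0.31 in all but normexp with 75th percentile scaling (0.020), which also reversed HSP90B1 (0.020), CANX (0.077), ATF4 (0.040) and XBP1 (0.17). With CD 1 also left out, none of these 4 was reversed. Leaving out slide 1 reversed XBP1 (0.023). Leaving out CD 1 under normexp and leaving out slide 1 were chosen after seeing the data. CALR, DNAJC3 and DDIT3 were lower in all 22 settings run for single genes, which add the mean of a gene's probes. Array median scaling and normexp with percentile scaling moved the median of all tested probes by -0.15 each. The count of called probes over the array was 128 with array median scaling, 88 with normexp and percentile scaling (215 with CD 1 left out), 856 with normexp and quantile normalisation, 66 without a filter, 735 with probes well above background on all arrays, 80 with a fixed slide block, 677 with a random one, 1206 with array weights, 55 without slide 1, and 25 to 325 without single arrays. Of the called probes, 43.8% were lower as reported and 63.3% with array median scaling, 28.4% with normexp and percentile scaling. The count of called pathway genes was 0 with array median scaling, normexp and percentile scaling, no filter, or without slide 1, 0 to 1 without single arrays, and 3 with normexp and quantile normalisation (DPM1, TXNIP, SPCS1). The cause of these shifts was not tested.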
